A study of Drosophila melanogaster with 15 samples.

Results

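Cytochrome P450 genes were followed in the brains and imaginal discs of Drosophila melanogaster larvae that differ in centrosome number. Members were the genes with a probe set of their own whose symbol begins with Cyp and a digit, and where a gene had several, the one with the highest mean over the arrays stood for it. The rule found 83 of 11982 genes with such a probe set. Of these, Cyp1 and Cyp40 are cyclophilins, which are peptidyl-prolyl isomerases and not P450 enzymes, so the family held 81 genes here. RefSeq (Release 6) lists 83 protein-coding P450 genes with a Cyp symbol.

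The tested strains were DSas-4 mutants and DSas-6 mutants, both labelled as without centrioles, and a strain with Sak overexpression (SakOE), labelled as having too many centrosomes. They were set against 2 wild types, w67 (genotype label "white") and OregonR. Each strain had 3 arrays (Affymetrix Drosophila Genome 2.0), called biological replicates by the labels, and tissue of 10 wandering larvae of the 3rd instar raised at 25 °C was pooled for each array. The mutant alleles and the promoter that drives Sak are not given in the sources used here, and 1 strain per genotype cannot separate the centrosome change from other differences between strains.

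P450 enzymes are haem monooxygenases that insert an oxygen atom into their substrate with electrons from a reductase or, in mitochondria, from a ferredoxin. In insects a few of them have fixed tasks, such as making and clearing the moulting hormone ecdysone or making the waxy hydrocarbons of the cuticle. Many others, mostly in the CYP4 and CYP3 clans, act on plant toxins, insecticides or fatty acids, and are best known from gut, fat body and Malpighian tubule.

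Signal was measured as the deposited log2 value of a probe set, with errors given as SD over n = 3 arrays. A gene was tested when its probe set reached 4 in at least 3 arrays. The lowest value of an array was 2.174 to 2.181, and between 44.36% and 44.82% of its probe sets reached 4. Levels of different probe sets were not compared, and sums over marker lists weigh each list towards its brightest probe sets. The arrays took 4 distinct lowest values, with DSas-4 and w67 sharing 1, so these groups may come from 1 normalization run and the others from a run each. In every comparison other than DSas-4 against w67, the run and the strain cannot be told apart. The targeted genes followed 2 of the 3 labels. Sas-4 lay between 4.66 and 5.10 in DSas-4 arrays, against 7.44 to 7.79 in all wild-type arrays. Sas-6 lay between 3.14 and 3.31 in DSas-6 arrays, against 7.61 to 7.82 in wild-type arrays. SAK lay between 7.50 and 7.58 in SakOE arrays, inside the wild-type range of 7.39 to 7.91, and whether its probe set reads the transgene is not known here.

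Most P450 genes had no signal in these tissues. Only 20 of the 81, or 24.7%, passed the filter, against 58.2% of all genes with a probe set of their own. A further 41 lay within 0.05 of the lowest value on all 15 arrays, a state shared by 27.6% of all genes. Of the 61 genes under the filter, 60 reached 4 on no array and 58 stayed under 3 on every array. The exception was Cyp9h1, at 4.14 in w67 replicate 3, and under 4 on the other 14 arrays. A single array held between 16 and 20 P450 genes at 4 or more, and 16 genes reached 4 on all arrays. Absence of signal on a probe set shows that the transcript was not detectable there, not that it was absent.

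The 20 genes with signal came from 8 of the 20 families that had a Cyp-symbol gene on the array. Family and clan counts here leave out P450 genes of ecdysone synthesis that carry other symbols. Of those, spok, dib, sad and phtm passed the filter, and spo and shd did not. The CYP4 clan, which holds many fatty acid hydroxylases, had 6 of 32 genes with signal, all in family CYP4. In the CYP3 clan, which holds most of the known insecticide-metabolising enzymes, 10 of 37 had signal. The CYP2 clan gave 1 of 4, Cyp18a1, whose product inactivates ecdysteroids by oxidation. The mitochondrial clan gave 3 of 8, Cyp12a4, Cyp12e1 and Cyp301a1. Family CYP313 had 6 genes on the array, all at the lowest value.

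**Figure D1:**
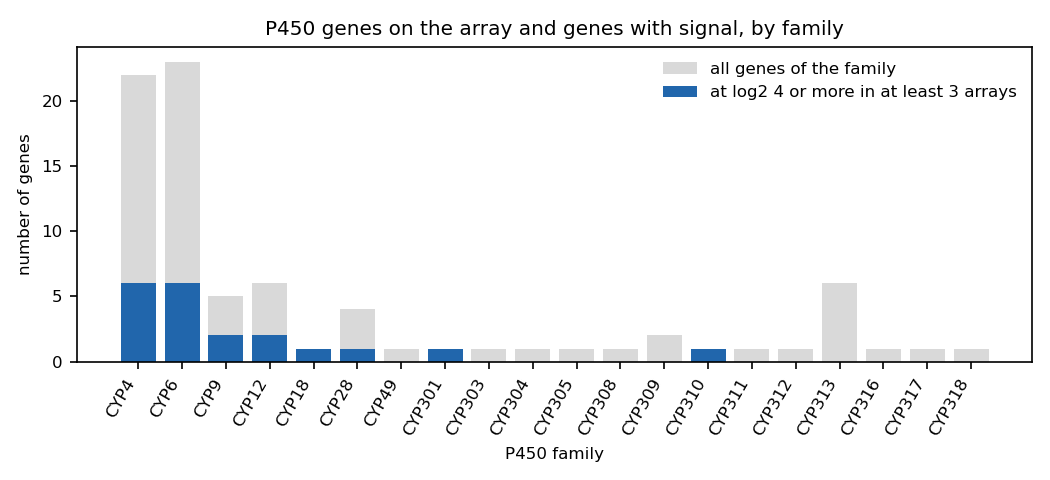
Number of P450 genes with a Cyp symbol per family on the array (grey bars, height from 0). Blue bars give the number that reached log2 4 in at least 3 arrays, with families on the horizontal axis. CYP4 and CYP6 each gave 6 genes with signal, of 22 and 23, and CYP313 gave none of 6.

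Several P450 genes with well-known roles were among the silent ones. Cyp6g1, whose overexpression gives resistance to DDT, lay at 2.18 to 2.19 on every array. Cyp303a1, needed for sensory bristle development, and Cyp6t3, linked to ecdysone production in the prothoracic gland, stayed within 0.05 of the lowest value throughout. Cyp6a18, listed here as a Malpighian tubule marker, did so too.

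Genes with and without signal often lay side by side. In the order of genes along the chromosomes, 37 of the 81 genes stood in 13 groups of neighbouring P450 genes with no other gene between them. In 7 of these groups no gene had signal, including the 9-gene group from Cyp6a22 to Cyp317a1 on arm 2R. The other 6 were mixed, and in none did every gene have signal. These groups, and the counts by arm below, cover Cyp-symbol genes only. They leave out phtm, a P450 gene of ecdysone synthesis that lies next to Cyp18a1. Both phtm and Cyp18a1 passed the filter. Within the Cyp4p group, Cyp4p2 and Cyp4p1 had signal and the adjoining Cyp4p3 lay at the lowest value. Cyp6g2 had signal between Cyp6g1 and Cyp6t3, which had none. Likewise Cyp12a4, Cyp28d1, Cyp4e2 and Cyp4d2 had signal, and their partners Cyp12a5, Cyp28d2, Cyp4ad1 and Cyp4ae1 did not pass. By arm, 9 of 33 genes passed on 2R, 5 of 14 on X, 4 of 15 on 3R, 2 of 13 on 2L and 0 of 6 on 3L.

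**Figure D2:**
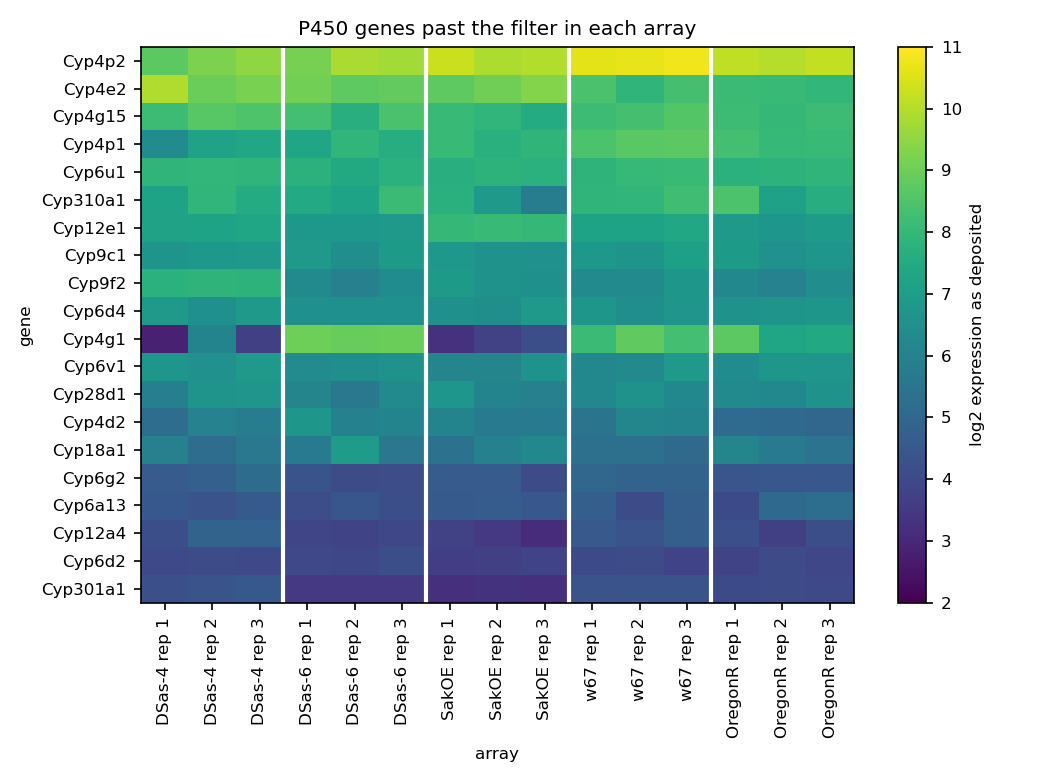
Log2 expression as deposited (colour) of the 20 P450 genes past the filter (rows, by mean) on each of the 15 arrays (columns, grouped by strain with white lines). Cyp4g1 is dark in DSas-4 and SakOE arrays and bright in DSas-6, w67 and OregonR arrays, and Cyp9f2 is brightest in DSas-4 arrays.

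Strains were first compared together. A moderated F-test over the 5 groups (limma, p adjusted by Benjamini-Hochberg over 6973 genes) called 12 of the 20 genes, or 60%, against 52.1% of all tested genes, so the family's share was close to the background. The 12 were Cyp301a1, Cyp12e1, Cyp9f2, Cyp4g1, Cyp4p2, Cyp4p1, Cyp4e2, Cyp12a4, Cyp6g2, Cyp4d2, Cyp6u1 and Cyp6d2, with limma adjusted p from 5.8e-08 for Cyp301a1 to 0.046 for Cyp6d2. Cyp301a1 and Cyp12a4 reached 4 on 8 arrays each and Cyp6d2 on 6. Part of their difference is therefore bound up with the filter. Cyp6u1 and Cyp6d2 lost their call after median centring (limma adjusted p = 0.148 and 0.151), among other settings. The Cyp6u1 call remained in 12 of 22 alternative settings and the Cyp6d2 call in 5 of 21. P-values here measure the spread between pooled samples of each strain, and fewer cells of a type cannot be told apart from less RNA per cell.

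Against both wild types together, DSas-4 mutants had 2 P450 genes higher, Cyp9f2 and Cyp4e2, and 3 lower, Cyp4g1, Cyp4p1 and Cyp4p2. That is 5 of 20, or 25%, against 3.3% of all tested genes (1.76% higher and 1.53% lower). A gene counted when limma's adjusted p was under 0.05 against w67 and against OregonR with the same sign. Against w67 alone, the comparison within 1 possible normalization run, the 5 genes called were the ones just named, against 4.6% of all tested genes. In DSas-6 mutants 2 of 20 were called, Cyp4e2 higher and Cyp301a1 lower, against 6.15% of all tested genes (2.14% higher and 4.02% lower). In SakOE 4 of 20 were called, Cyp12e1 and Cyp4e2 higher and Cyp4g1 and Cyp301a1 lower, against 10.7% of all tested genes (3.46% higher and 7.24% lower). Cyp301a1 was under 4 on all arrays of both strains and passed the filter only through the others, and without such genes the counts were 1 in DSas-6 and 3 in SakOE. The 3 comparisons share the 6 wild-type arrays. The median difference of all tested genes was within 0.1 of 0 in each of these contrasts, except SakOE minus w67, at -0.12. With arrays centred on their medians, all of these calls against both wild types remained, and the smaller SakOE difference was 0.87 for Cyp12e1 and 0.96 for Cyp4e2.

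**Figure D3:**
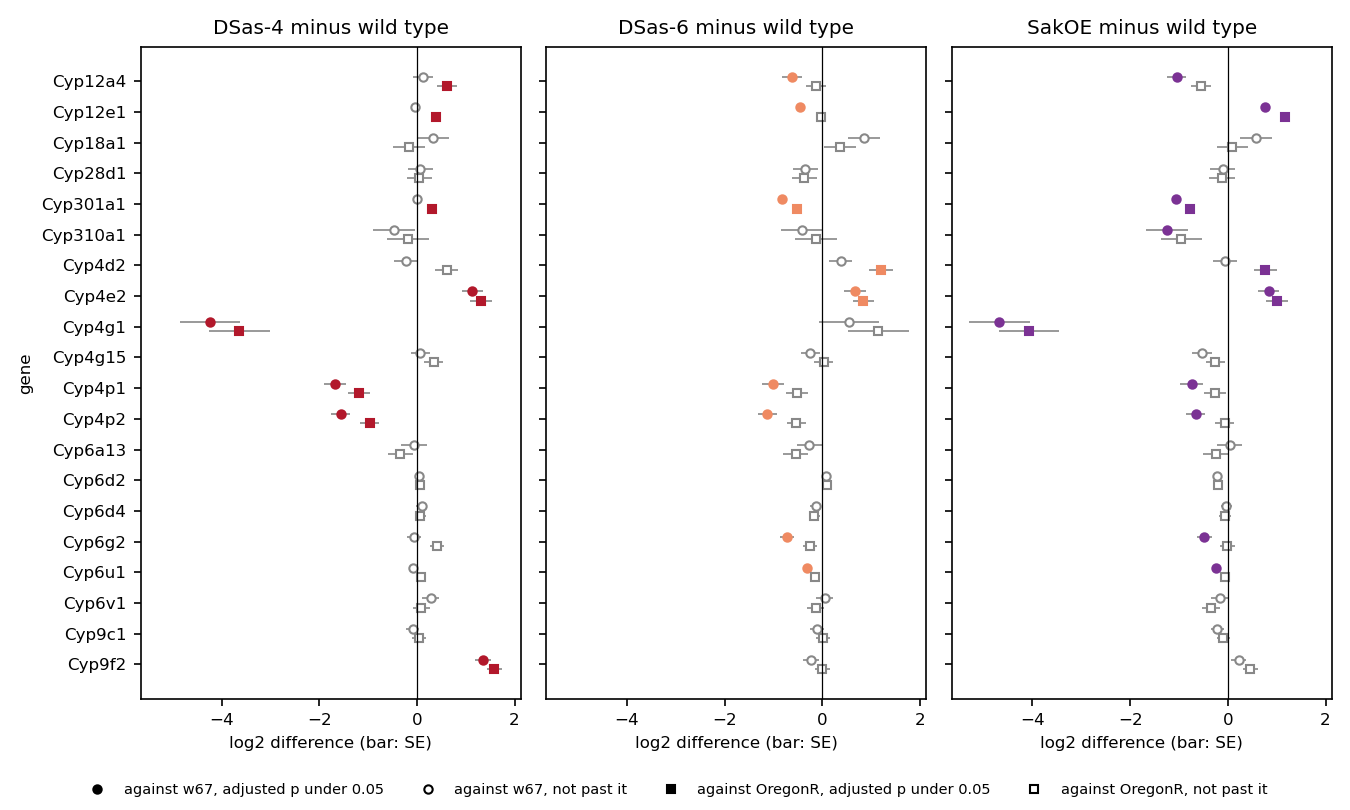
Log2 difference from w67 (circles) and from OregonR (squares) for the 20 P450 genes past the filter in DSas-4, DSas-6 and SakOE (panels, 1 common axis), with bars for the standard error of the limma fit and filled symbols for an adjusted p under 0.05. Cyp4g1 stands furthest left in the DSas-4 and SakOE panels, at -3.63 to -4.68, and Cyp4e2 lies right of 0 in all 3 panels.

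Cyp4g1, the oxidative decarbonylase that makes cuticular hydrocarbons in oenocytes, had the widest range over the arrays among the tested P450 genes. It stood at 2.82, 6.05 and 3.69 in DSas-4 arrays and at 3.31, 3.77 and 4.16 in SakOE arrays. The DSas-6 arrays read 9.0, 8.92 and 8.99, against 8.15, 8.82 and 8.31 in w67 and 8.72, 7.29 and 7.45 in OregonR. Every DSas-4 and SakOE array was below every wild-type array, with 2 of 3 under the filter level in each strain, and every DSas-6 array was above them all.

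The Cyp4g1 difference in DSas-4 was -4.24 ± 0.62 (SE) from w67 (limma adjusted p = 0.0011) and -3.63 ± 0.62 from OregonR (adjusted p = 0.0015). The smaller one is a 12.4-fold decrease, or 8.8-fold with values under 4 set to 4. It was -2.95 without DSas-4 replicate 1 and -4.57 without DSas-4 replicate 2, and the call was lost when only the arrays of the groups compared were fitted (limma, adjusted p = 0.057). In SakOE the difference was -4.68 ± 0.62 from w67 (limma adjusted p = 0.00018) and -4.07 ± 0.62 from OregonR (adjusted p = 0.00055), a 16.9-fold decrease, or 13.6-fold with values under 4 set to 4. DSas-6 differed by 0.55 and 1.15, which did not pass (limma adjusted p = 0.57 and 0.26), and SakOE from DSas-4 by -0.44 (adjusted p = 0.60).

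Other oenocyte and hydrocarbon genes were read beside Cyp4g1. Of 7 oenocyte markers, 4 passed the filter and no other was called in any strain. Hnf4, a nuclear receptor of lipid metabolism, lay between 8.42 and 8.84 on all arrays. The fatty acid elongase gene eloF and CG18609 were at the lowest value on every array, and the reductase gene FarO was under the filter. The fatty acid synthase gene FASN3 stood at 3.46, 5.37 and 5.02 in DSas-4 arrays, 7.15, 8.11 and 7.49 in DSas-6 and 4.19, 3.47 and 5.51 in SakOE. The wild types read 5.79, 7.66 and 7.12 in w67 and 5.49, 5.35 and 6.23 in OregonR. By its means, FASN3 was lowest in the strains where Cyp4g1 was low and highest in DSas-6. Its DSas-4 and SakOE arrays overlapped those of OregonR, and its DSas-6 arrays overlapped those of w67. FASN3 passed the F-test (limma adjusted p = 0.0030) but was called against both wild types in no strain.

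The desaturase gene Desat1 was called in no strain and made up 75.3% to 88.2% of the linear signal summed over the 7 oenocyte markers, which is therefore mostly a reading of that gene. The sum, Cyp4g1 included, was 3651 to 4442 in DSas-4 arrays, 4423 to 4795 in DSas-6, 3201 to 3576 in SakOE, 3874 to 4634 in w67 and 3337 to 3866 in OregonR. Their part in the Cyp4g1 result was not tested. Of 14 matched genes of hydrocarbon synthesis, 7 passed the filter. ACC, the acetyl-CoA carboxylase that starts fatty acid synthesis, was lower in DSas-6 (smaller difference -0.36, limma adjusted p = 0.0078) and in SakOE (-0.31, adjusted p = 0.014). The gene next to Cyp4g1 on the X chromosome, the neuroblast factor gene ase, was called lower in SakOE by a smaller difference of -0.32 and was not called in DSas-4 or DSas-6. On the other side, ebo was called lower in DSas-6, by -0.31 from w67 and -0.22 from OregonR (larger limma adjusted p = 0.018), and was not called in DSas-4 or SakOE.

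**Figure D4:**
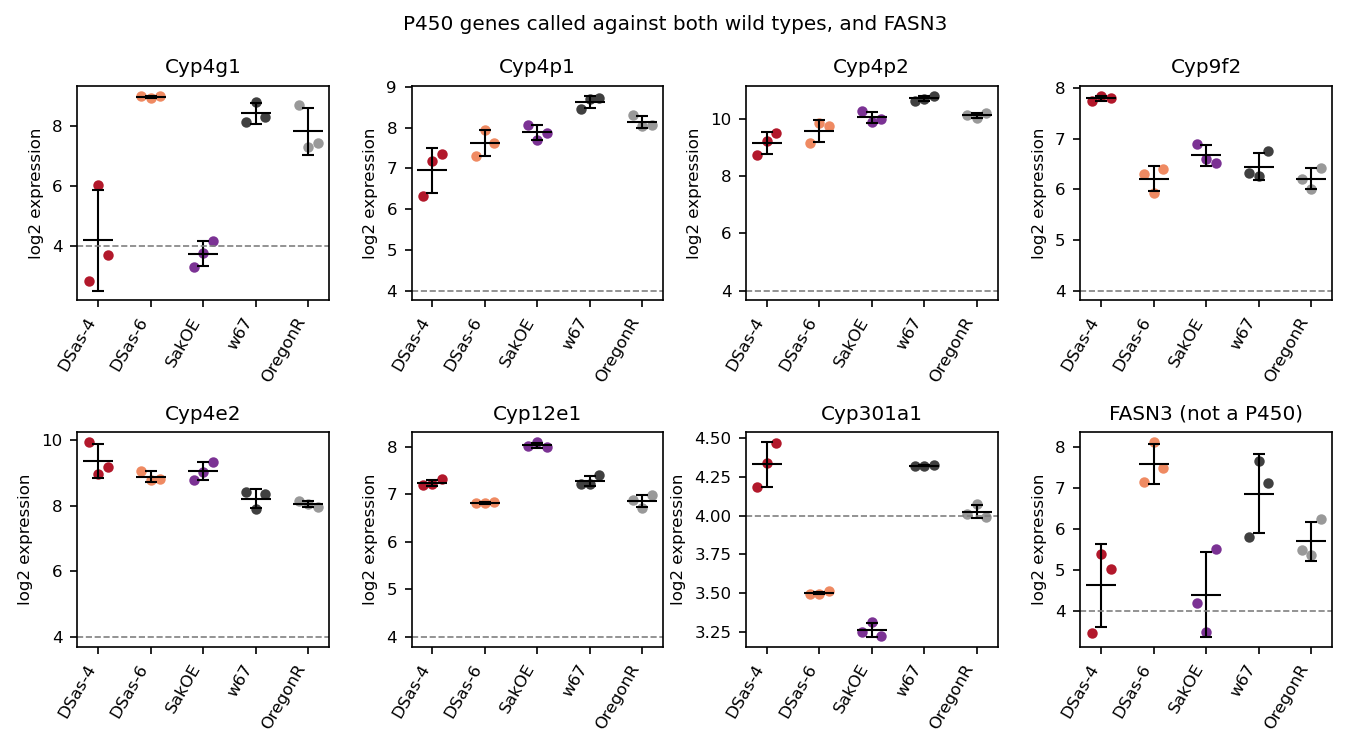
Log2 expression of the 7 P450 genes called against both wild types in at least 1 strain, and of FASN3, which is not a P450 gene, with 1 point per array, the mean as a horizontal line and SD as bars. The dashed line marks the filter level of 4, and the vertical scale differs between panels and does not start at 0. Cyp4g1 and FASN3 both have their lowest means in DSas-4 and SakOE, and FASN3 arrays of these strains overlap OregonR.

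Cyp4p1 and Cyp4p2 are neighbours on arm 2R and had signal in all arrays. Cyp4p1 stood at 6.33, 7.18 and 7.36 in DSas-4 arrays, 7.30, 7.93 and 7.62 in DSas-6 and 8.07, 7.71 and 7.87 in SakOE. It stood at 8.45, 8.69 and 8.74 in w67 and 8.32, 8.04 and 8.06 in OregonR. All DSas-4 and DSas-6 arrays were below all wild-type arrays, while SakOE lay below w67 and its highest array reached into the OregonR range.

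The decrease of Cyp4p1 in DSas-4 was -1.67 ± 0.23 (SE) from w67 (limma adjusted p = 0.00069) and -1.19 ± 0.23 from OregonR (adjusted p = 0.0029), 2.28-fold by the smaller one. Without DSas-4 replicate 1, the lowest array, the smaller difference was -0.87 and still called. In DSas-6 the differences were -1.01 from w67, which passed, and -0.53 from OregonR, which did not (limma adjusted p = 0.0084 and 0.15).

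Cyp4p2 ran in the same order. DSas-4 arrays read 8.72, 9.21 and 9.50, DSas-6 arrays 9.14, 9.84 and 9.74, and SakOE arrays 10.26, 9.89 and 9.98. The values were 10.62, 10.69 and 10.79 in w67 and 10.14, 10.01 and 10.18 in OregonR. DSas-4 and DSas-6 arrays were again below every wild-type array. The DSas-4 decrease was -1.56 ± 0.19 (SE) from w67 and -0.97 ± 0.19 from OregonR (limma adjusted p = 0.00031 and 0.0039), 1.95-fold by the smaller one. Without DSas-4 replicate 1 it was -0.75. Of the nearest tested genes outside the pair, Tsen15 was called in no strain, and hig was called lower in DSas-6 and SakOE and not called in DSas-4.

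Cyp9f2, a member of the CYP9 family in the CYP3 clan, was higher in DSas-4 alone among the 3 altered strains. DSas-4 arrays read 7.74, 7.84 and 7.81, DSas-6 arrays 6.30, 5.93 and 6.39, and SakOE arrays 6.90, 6.59 and 6.51. The wild types read 6.31, 6.26 and 6.75 in w67 and 6.20, 6.0 and 6.42 in OregonR. The DSas-4 arrays were close together and above the other 12.

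The Cyp9f2 difference was 1.35 ± 0.15 (SE) from w67 and 1.59 ± 0.15 from OregonR (limma adjusted p = 0.00015 and 2.1e-05), 2.56-fold higher by the smaller one. DSas-4 also differed from DSas-6 by 1.59 and SakOE from DSas-4 by -1.13 (limma adjusted p = 1.65e-05 and 0.00021). Its tested neighbours on arm 3R, Sol1 and CG5167, were called against both wild types in no strain. Both were higher in DSas-4 than in OregonR, by 0.74 and 0.37 (limma adjusted p = 0.012 and 0.011). In that contrast 20.5% of all tested genes were higher. From w67 they differed by 0.33 and 0.28, which did not pass (limma adjusted p = 0.38 and 0.11).

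Cyp4e2, of family CYP4, was the 1 P450 gene called in all 3 altered strains, each time higher. It stood at 9.94, 8.97 and 9.18 in DSas-4 arrays, 9.08, 8.79 and 8.82 in DSas-6 and 8.78, 9.04 and 9.35 in SakOE, against 8.42, 7.90 and 8.35 in w67 and 8.14, 8.07 and 7.96 in OregonR. All 9 arrays of the altered strains were above all 6 wild-type arrays.

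The smaller Cyp4e2 difference was 1.14 ± 0.22 (SE) in DSas-4 (larger limma adjusted p = 0.0089), 0.67 ± 0.22 in DSas-6 (0.0465) and 0.83 ± 0.22 in SakOE (0.013), or 2.20-fold, 1.59-fold and 1.78-fold. Without DSas-4 replicate 1 the DSas-4 value was 0.85 and still called, but the call was lost when only the arrays of the groups compared were fitted (limma adjusted p = 0.12). The SakOE call was lost without SakOE replicate 3, at 0.69, or without w67 replicate 2, at 0.67. The DSas-6 call rested on a p near the threshold and remained in 11 of 23 alternative settings. Differences between the altered strains did not pass, at 0.47 for DSas-4 minus DSas-6 and -0.30 for SakOE minus DSas-4 (limma adjusted p = 0.14 and 0.30).

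On DSas-4 replicate 1, the array with the highest Cyp4e2 value, many haemocyte and lymph gland markers were high too. Of 18 markers, 15 passed the filter, and 11 of the 15 had their highest value on that array. The exceptions Ppn, lz, gcm2 and Pvr had theirs on other arrays. The haemolectin gene Hml stood at 7.74 on DSas-4 replicate 1, against 5.67 at most in the wild types, and the phagocytosis receptor gene eater at 7.45, against 5.54 at most. The crystal cell gene PPO1 stood at 9.66, against 6.65 at most, and PPO2 at 10.87, against 8.03 at most. These 4 genes were called against both wild types in no strain. Sr-CI, a scavenger receptor gene, was called higher in DSas-4, but it reached 4 only in the 3 DSas-4 arrays and w67 replicate 3, so it passed the filter through the strain where it was high. The linear signal of all 18 markers summed to 9679 on DSas-4 replicate 1, and to 5760 and 5858 on the other DSas-4 arrays. It was 4620 to 5084 in DSas-6, 5146 to 5990 in SakOE, 5067 to 5528 in w67 and 4567 to 5245 in OregonR. Of the plasmatocyte markers, NimC1 and NimC2 lay within 0.05 of the lowest value on all arrays. The part of these cells in the Cyp4e2 result was not tested.

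Cyp12e1, of the mitochondrial clan, was higher in SakOE. The SakOE arrays read 8.01, 8.10 and 7.99, DSas-4 arrays 7.20, 7.22 and 7.32, and DSas-6 arrays 6.81, 6.81 and 6.85. The values were 7.22, 7.21 and 7.41 in w67 and 6.88, 6.72 and 6.98 in OregonR. SakOE lay above all other arrays, and the remaining strains fell into a higher pair, DSas-4 and w67, and a lower pair, DSas-6 and OregonR.

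The SakOE difference was 0.75 ± 0.07 (SE) from w67 and 1.17 ± 0.07 from OregonR (limma adjusted p = 9.9e-06 and 1.5e-07), 1.68-fold by the smaller one. A second probe set of Cyp12e1 averaged 7.88 ± 0.13 in SakOE, against 7.11 ± 0.18 in w67 and 6.61 ± 0.24 in OregonR (SD, n = 3 each). The nearest tested genes on either side, Rrp46 and Skel, were called in no strain.

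Cyp301a1, a mitochondrial P450 needed for the formation of adult cuticle, was dim on every array. It stood at 4.18, 4.34 and 4.47 in DSas-4 arrays, 3.50, 3.50 and 3.51 in DSas-6 and 3.25, 3.31 and 3.22 in SakOE, against 4.32, 4.32 and 4.33 in w67 and 4.01, 4.07 and 3.99 in OregonR. DSas-6 and SakOE stayed under 4 on all arrays and below every wild-type array, while DSas-4 overlapped w67. Because the gene passed the filter only through DSas-4, w67 and OregonR, its difference from them is bound up with the filter, and with all wild-type arrays within 0.5 of the filter level no difference or fold is given.

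Other P450 genes were called against both wild types in no strain. Cyp12a4, linked to lufenuron resistance, lay at 3.75, 3.51 and 3.13 in SakOE, against 4.52, 4.29 and 4.72 in w67 and 4.19, 3.69 and 4.16 in OregonR. It was under 4 on all DSas-6 arrays as well (3.86 to 3.93) and passed the filter only through DSas-4, w67 and OregonR, so no difference is given. Cyp6g2, which gives resistance to some insecticides when overexpressed, was lower than w67 in DSas-6 (-0.72) and SakOE (-0.48). Neither Cyp6g2 difference from OregonR passed (limma adjusted p = 0.31 and 0.97). Cyp6u1 was lower than w67 in DSas-6 (-0.32) and SakOE (-0.24), with limma adjusted p = 0.019 and 0.043, and not lower than OregonR by the test. Cyp6d2 was called in no comparison with a wild type.

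Cyp310a1, a CYP3 clan gene on 2L, varied widely within strains. SakOE arrays read 7.71, 6.87 and 5.77, DSas-4 arrays 7.23, 7.91 and 7.54, and DSas-6 arrays 7.50, 7.21 and 8.14. The values were 7.90, 7.93 and 8.25 in w67 and 8.44, 7.16 and 7.61 in OregonR. SakOE overlapped OregonR, and the F-test was not passed (limma adjusted p = 0.16). The SakOE difference was -1.24 from w67 and -0.95 from OregonR, with limma adjusted p = 0.042 and 0.15.

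The ecdysteroid-clearing gene Cyp18a1 stood between 5.22 and 5.90 in DSas-4, 5.58 and 6.97 in DSas-6, 5.35 and 6.19 in SakOE, 5.12 and 5.31 in w67 and 5.43 and 6.10 in OregonR. The w67 arrays overlapped DSas-4 and lay below the other strains, but its F-test was not passed (limma adjusted p = 0.23). A second probe set of Cyp18a1 averaged 3.01 over all arrays. Cyp4g15, a relative of Cyp4g1 known from the larval nervous system, averaged 8.46 ± 0.25 in DSas-4, 8.14 ± 0.40 in DSas-6 and 7.85 ± 0.28 in SakOE, against 8.38 ± 0.21 in w67 and 8.11 ± 0.11 in OregonR (SD, n = 3 each). Its F-test gave a limma adjusted p of 0.093. For Cyp6v1, Cyp6a13, Cyp6d4, Cyp28d1 and Cyp9c1 the adjusted p of the F-test lay between 0.23 and 0.66, and none was called in any comparison with a wild type.

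Between the wild types, w67 and OregonR, 3 of 20 P450 genes differed, or 15%, against 15.7% of all tested genes, so the share was that of the background. All 3 were higher in w67, against 13.8% of all tested genes. Cyp4d2, of family CYP4, stood at 5.46, 6.13 and 6.07 in w67 arrays, against 5.14, 5.07 and 4.97 in OregonR arrays. The difference was 0.83 ± 0.24 (SE; limma adjusted p = 0.035), and the call was lost without w67 replicate 2 or 3 or any 1 OregonR array, at 0.71 to 0.87. OregonR was the low group for Cyp4d2, as DSas-6 (1.20) and SakOE (0.77) were also higher than OregonR and not higher than w67 by the test. Cyp12e1 was higher by 0.42 (limma adjusted p = 0.0023). Cyp301a1 was called too (limma adjusted p = 0.0068), but its OregonR arrays, at 4.01, 4.07 and 3.99, lay at the filter level. For it no difference is given here either. With arrays centred on their medians, Cyp12e1 alone remained called, at 0.32. Cyp4g1 differed by 0.60 between the wild types and did not pass (limma adjusted p = 0.53).

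Ecdysone synthesis uses further P450 genes that carry other symbols, known together as the Halloween genes. Some of them, not all, are active in the ring gland attached to the brain. Of 6 listed, 5 were matched. The listed symbol phm found no match, but the gene is annotated as phtm and was tested under that symbol. Of the 5, spok, dib and sad passed the filter, and spo and shd were under 4 on all arrays. The hydroxylase gene dib stood at 4.96, 5.59 and 5.21 in SakOE arrays, against 6.70, 6.49 and 6.25 in w67 and 5.93, 6.18 and 6.31 in OregonR. SakOE was below all wild-type arrays, with a smaller difference of -0.89 (larger limma adjusted p = 0.019). Its call was lost without SakOE replicate 1 or 3 or OregonR replicate 2 or 3, at -0.74 to -0.87. Its successor in the pathway, sad, was called lower in SakOE too (-0.50, larger limma adjusted p = 0.042), in a contrast where 7.24% of tested genes were lower. That sad call remained in 10 of 23 alternative settings. The early-step gene spok did not pass the F-test (limma adjusted p = 0.33). Nor did phtm (limma adjusted p = 0.055), which was called against both wild types in no strain. In SakOE, phtm differed by -0.67 from w67 and by -0.42 from OregonR (limma adjusted p = 0.015 and 0.14).

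All 7 matched ecdysone synthesis genes that are not P450 genes passed the filter. The oxygenase gene nvd, which takes the first step from cholesterol, was lower in DSas-4 (smaller difference -0.83) and in SakOE (-1.18). The larger limma adjusted p was 0.020 in DSas-4 and 0.0030 in SakOE. In DSas-4 the call was lost in 6 of 23 alternative settings, with -0.52 without DSas-4 replicate 1. On DSas-4 replicate 1, the array with the lowest Cyp4g1, Cyp4p1 and Cyp4p2 of its strain, nvd (7.19), sad (8.86), dib (5.55) and spok (10.77) were also the lowest of the strain. Whether these values share a source was not tested.

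Partners and regulators of P450 enzymes were read too. From 8 listed symbols of electron transfer partners, 5 genes were matched, and Cpr and dare were not. Of the 5, 4 passed the filter and Cyt-b5-r was at the lowest value on all arrays. Fdx1, a mitochondrial ferredoxin, was lower in DSas-4 by a smaller difference of -0.22 (larger limma adjusted p = 0.030), a call lost in 9 of 23 alternative settings, with -0.14 without DSas-4 replicate 1. No other partner was called against both wild types in any strain. All 6 matched regulators of the xenobiotic response, cnc, Keap1, maf-S, Hr96, tgo and ss, passed the filter. Against both wild types, 0 were called in any strain. The shares over all tested genes were 3.3% in DSas-4, 6.15% in DSas-6 and 10.7% in SakOE. Lists of 4 and 6 tested genes are too short to set against such shares.

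Markers of the labelled tissue were present, as all 17 matched brain and imaginal disc markers and all 11 glial markers passed the filter. The linear signal of the brain and disc markers summed to 17837 to 20721 in DSas-4 arrays, 19639 to 22841 in DSas-6 and 14654 to 15090 in SakOE, against 17288 to 19133 in w67 and 20628 to 22236 in OregonR. SakOE arrays were the lowest. Gut markers, from tissue rich in P450 genes, passed in 0 of 19 cases. Their sum was 86 to 87 on 14 arrays and 685 in OregonR replicate 3. Fat body markers passed in 9 of 9. Their linear signal, of which the lipophorin gene apolpp made up 65.4% to 75.5%, summed to 3039 to 3273 in DSas-4 arrays, 2519 to 2737 in DSas-6 and 2348 to 2550 in SakOE, against 2632 to 2834 in w67 and 2327 to 2495 in OregonR. This sum, mostly a reading of apolpp, was higher in DSas-4 arrays than in all others. In that strain apolpp was called higher, by a smaller difference of 0.28 (larger limma adjusted p = 0.036), and no other of the 9 was called. From w67, DSas-4 differed by -0.32 for Apoltp (limma adjusted p = 0.040), -0.51 for Lsp2, -0.50 for Fbp2, -0.10 for Fbp1 and -0.03 for Mtp. It differed by 0.43 for fat-spondin, 0.12 for Obp99b and 0.44 for Adgf-A. Of these, only Apoltp passed. Another of the 9, Adgf-A, was called lower in DSas-6 and higher in SakOE. Of the other lists, Malpighian tubule markers passed in 4 of 10, salivary gland markers in 2 of 11 and tracheal and cuticle markers in 5 of 7. The part of these tissues in the P450 results was not tested.

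Below the filter, small differences followed the sets of arrays that share a lowest value. Cyp6t1 read 2.74 on all DSas-4 arrays, 2.27 on all DSas-6 arrays and 2.51 to 2.52 in SakOE, against 2.74 on all w67 arrays and 2.56 to 2.62 in OregonR. DSas-4 and w67 coincided there, and the other strains each had a level of their own. With no filter, 47 of the 61 genes passed the F-test over the 5 groups (limma), but 0 passed DSas-4 against w67. The range over all arrays was under 0.05 for 41 of the 61, and under 0.5 for 42 of the 47 that passed. The rest of the 47 had ranges from 0.65 for Cyp12b2 to 1.62 for Cyp9h1. Cyp9h1 did not follow the shared lowest value, with means of 2.92 in DSas-4 and 3.68 in w67. As all these genes were under the filter, their calls are not reported as strain differences.

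**Figure D5:**
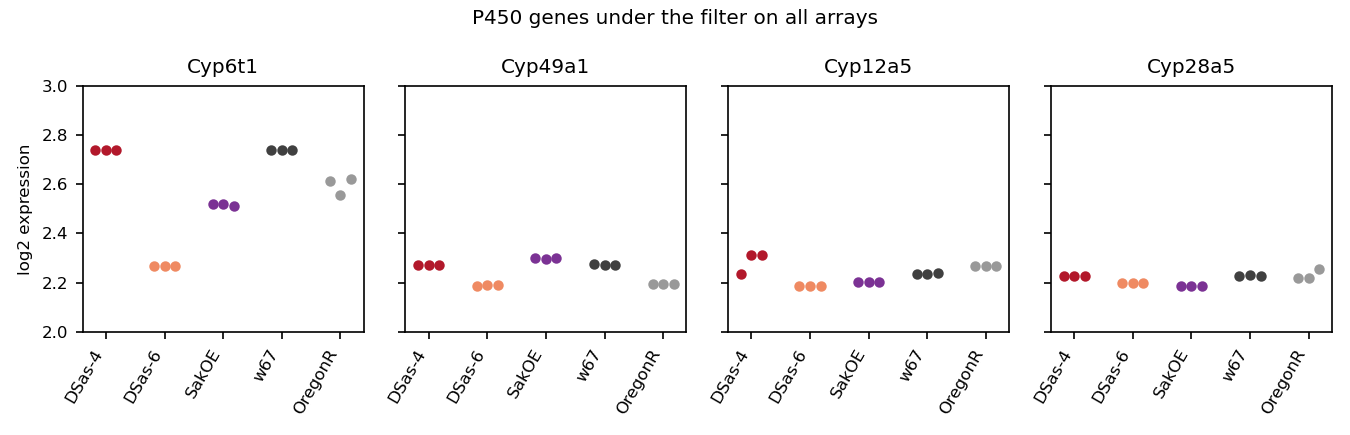
Log2 expression of 4 P450 genes under the filter (Cyp6t1, Cyp49a1, Cyp12a5 and Cyp28a5) on a scale from 2 to 3, with 1 point per array and strains on the horizontal axis. Arrays of a strain nearly coincide, and DSas-4 and w67 lie at the same level for Cyp6t1.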

How the data were processed

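RNA of 15 samples in 5 strains was measured on single-colour arrays. The submitters' processing notes name GCRMA, a background correction and summary of probes into 1 value per probe set, and limma, without versions that could be used here. The deposited values run from 2.174 to 15.03; they are read as the authors' log2 values because GCRMA gives such values, though no source states the scale. The number of arrays limits the precision.

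Each array held 18952 probe sets. Those with several symbols or none were left out. Gene names came from the platform annotation, and chromosome arm and gene order from RefSeq Release 6. A model with 1 mean per strain was fitted to all 6973 genes past the filter with limma 3.58.1 in R 4.3.3, with two-sided tests and p adjusted by Benjamini-Hochberg within each contrast. The script was tested on simulated data. Genes were named by rule: those called, those with the smallest F-test p or highest mean, and genes of known role. The members and lists were chosen with earlier results of these data known. Alternatives changed the filter, scaling, probe set choice, prior, samples in the fit and replicates.

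Same-numbered arrays of DSas-4 and w67 deviated together (correlations 0.12 to 0.30), so their numbers may pair samples. Arrays with unlike numbers reached such values elsewhere, as DSas-4 replicate 2 with SakOE replicate 1 (0.35), so pairing is not established. No other pair of strains had all 3 correlations over 0.1. With the pairs as a block on those 6 arrays, all 5 P450 genes called between DSas-4 and w67 kept their call.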

Additional observations from a re-analysis of the deposited data

Results flagged for a closer look

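A probe set annotated to both shn, a zinc finger transcription factor gene, and Cyp6v1 was left out of all comparisons because it carries several symbols. It averaged 11.8 (11.7677) in DSas-4 and 11.3 (11.2542) in SakOE, and 10.5 in DSas-6, against 10.7 in w67 and 9.90 in OregonR on the log2 scale (SD 0.03 to 0.17, n = 3 each). Every DSas-4 and SakOE array was above every wild-type array. The probe set that belongs to Cyp6v1 alone did not pass the F-test (limma adjusted p = 0.23) and ranged from 6.10 to 6.85 over all arrays. Which transcript the shared probe set reads was not tested.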

How the results depend on the processing

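Alternatives left the direction of every P450 gene called against both wild types as it was, in every setting run. Without the filter the F-test called 58 P450 genes, w67 against OregonR 43, DSas-6 against both wild types 6 and SakOE 11, which follows from testing the genes near the lowest value. Median centring and quantile normalization each left 1 gene between w67 and OregonR. Fitting only the groups compared gave 6 genes between w67 and OregonR, and 3 in DSas-4 against w67 and against both wild types (Cyp4g1 and Cyp4e2 lost); there fewer arrays estimate the spread. The DSas-6 count was 1 with a filter at 5, with a trend and robust prior, and, in an alternative chosen after seeing the data, without genes under 4 on all arrays of a group.

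Leaving out 1 array at a time gave 10 to 13 genes for the F-test, 2 to 6 for w67 against OregonR, 5 in every case for DSas-4 in both comparisons, 1 to 4 for DSas-6 and 3 to 6 for SakOE. The DSas-6 count was 4 without DSas-4 replicate 1 and 1 without any array of DSas-6, w67 or OregonR, without DSas-4 replicate 3 or without SakOE replicate 2; the Cyp4e2 call was lost there. The SakOE call of Cyp4e2 was lost without SakOE replicate 3 or w67 replicate 2. With the replicate block over all strains the counts were 10 for the F-test, 2 for w67 against OregonR, 5 for DSas-4 in both comparisons, 2 for DSas-6 and 4 for SakOE. Counting the 2 cyclophilins, an alternative also added later, moved no count by over 1.5 times.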
